A study of Mus musculus with 48 samples.

Results

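The potassium channel subunit genes were the protein-coding genes of the count table with a symbol of the Kcn pattern. That pattern is a family letter and a number, and 1 gene of it, from the Kcnj family, was left out. The rule used the symbol alone and no measured value, and it found 92 genes among the 53465 genes of the table, of which 21942 were protein-coding. The data were read counts per gene from sorted enteroendocrine cells (EECs), the hormone-secreting cells of the gut epithelium, of the Neurod1-cre-eYFP mouse strain. In these mice the Neurod1 promoter drives Cre, so the yellow fluorescent protein marks cells that express or have expressed Neurod1. All 17 mice carried this reporter, were operated at 20 weeks of age, ate standard chow outside the days around surgery, and were killed 6 weeks after surgery, about 15 min after an oral glucose gavage of 3 g/kg. In the VSG (vertical sleeve gastrectomy) group about 70% of the stomach was removed. Sham mice (S_al) were opened, given a loose suture and fed ad libitum, and weight-matched sham mice (S_wm) had the same operation and were matched in body weight to the VSG mice. Cells were sorted from the top 5 cm of the small intestine (duodenum), the bottom 15 cm (ileum) and the large intestine (colon). Each region had 16 libraries, 5 S_al, 5 S_wm and 6 VSG, with 1 library per mouse and region, and 15 mice gave all 3 regions.

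Potassium channels let potassium ions leave the cell and so hold the membrane potential negative. EECs are electrically excitable, and their resting potential and the shape of their action potentials set the calcium entry that releases gut hormones. The families differ in what opens them. Voltage-gated alpha subunits (Kcna, Kcnb, Kcnc, Kcnd, Kcnh, Kcnq) open on depolarization, modifier alpha subunits (Kcnf, Kcng, Kcns, Kcnv) form no working channel alone and join Kcnb subunits, and auxiliary subunits (Kcnab, Kcne, Kcnip) alter gating or trafficking. Inward rectifiers (Kcnj) and 2-pore leak channels (Kcnk) act around the resting potential, and Kcnma, Kcnn, Kcnt and Kcnu channels, with the Kcnmb subunits, respond to internal calcium, sodium or pH.

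Total counts per library ranged from 4648651 to 17182463 (median 6713018). The 8 EEC markers, all above 1 CPM (counts scaled to library size, with TMM factors) in every region, summed to 51770, 45280 and 52820 CPM in duodenum, ileum and colon, and most of each sum was the granule proteins Chga and Chgb. The means of 5 others were highest in duodenum and lowest in colon: Neurod1, whose promoter drives Cre (660, 412 and 255 CPM), Scg2 (1092, 412 and 31.6), Scg3 (356, 251 and 111), Pax6 (156, 108 and 49.5) and Isl1 (112, 58.3 and 10.5), while Insm1 stood at 198, 201 and 233.6 CPM. The order of these 5 is that of some channel genes that were lowest in colon, such as Kcnk2 and Kcnj2. Others, among them Kcnt1, Kcng2, Kcnq1 and Kcnab3, had their lowest mean in colon but their highest in ileum. Of these named genes, only Kcng2 differed past the threshold between colon and duodenum in the tests below. The part of these markers in the channel differences was not tested. Markers of other cells were also present and differed by region. The 8 enterocyte markers summed to 9007, 9929 and 448 CPM in duodenum, ileum and colon, the 6 goblet cell markers to 3757, 4050 and 8583 CPM, and the 6 colonocyte markers to 123, 174 and 1279 CPM. The goblet cell marker Tff3 (207, 164 and 125 CPM) and the colonocyte marker Ceacam20 (73.8, 81.5 and 60.8) were lowest in the colon. The other goblet cell and colonocyte markers were highest there, with Car1 alone at 859 CPM. The 7 enteric neuron and glia markers summed to 167, 110 and 92.4 CPM, of which Ret alone was 160, 100.1 and 78.1. The neuronal Uchl1 (5.27, 7.83 and 9.94 CPM) and Elavl4 (1.12, 1.70 and 3.30) had the opposite order, and the other 4 were under 1 CPM in each region. The Paneth cell markers summed to 553, 3104 and 29.1 CPM. The sort excluded CD45-positive cells, and the immune sums of 299, 777 and 44.9 CPM were almost wholly Cd74 (294, 772 and 40.8), with Ptprc, the gene of CD45, at 2.45, 1.72 and 3.15 CPM. The 6 smooth muscle and stroma markers summed to at most 7.48 CPM in any library. In bulk libraries fewer cells of a type and less RNA per cell cannot be told apart. The duodenum library of S_wm mouse 27 stood apart, with EEC markers at 11430 CPM (median of duodenum libraries 54580) and enterocyte markers at 42650 CPM (at most 13380 in the others). Its Paneth cell (3744 CPM) and immune (1848 CPM) markers were also the highest of the duodenum. Of the 36 members at 1 CPM or more in the duodenum, 22 had their lowest duodenal value in this library and 4 (Kcne3, Kcnk10, Kcnk5 and Kcnk6) their highest. For S_al mouse 12 the ileum and colon sample codes contradict the tissue labels, and the libraries were placed by tissue label. Kcnk3 and Kcnj3 were at 2.40 and 17.07 CPM in its ileum library and at 104.5 and 1.34 in its colon library, while the other 15 ileum libraries lay at 0.748 to 6.25 and 26.6 to 63.6 and the other 15 colon libraries at 38.93 to 121 and 0 to 3.55. Its ileum value of Kcnj3 was thus below every other ileum library and above every colon library. The second library index in the labels partly followed the region: 12 of the 16 duodenum libraries had an index that no library of another region had.

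Of the 92 members, 41 reached a mean of 1 CPM in at least 1 region, 36 in duodenum, 38 in ileum, 37 in colon and 32 in all 3. The other 51 never did, although each had at least 1 count somewhere. Per kilobase of exon (RPKM, the scale for comparing genes), the most abundant member in every region was Kcnk1, a weakly conducting 2-pore channel of many epithelia, at 28.5 ± 4.54, 32.8 ± 4.43 and 40.8 ± 3.89 RPKM in duodenum, ileum and colon (mean ± SD, n = 16). Kcnq1, the voltage-gated channel of epithelia, stood at 23.7 ± 4.35, 30.6 ± 6.38 and 21.7 ± 2.61 RPKM. Its auxiliary partner in the intestinal epithelium, Kcne3, was at 12.1 ± 4.97, 18.02 ± 6.14 and 27.6 ± 8.44 RPKM. Kcnh6 (an ERG-type channel), Kcnk16 (a 2-pore channel known from pancreatic beta cells), Kcnc1 (a fast delayed rectifier) and Kcnb2 (a delayed rectifier) had their highest levels in the duodenum, at 21.1 ± 6.66, 20.2 ± 5.62, 18.4 ± 5.81 and 10.6 ± 2.54 RPKM. Kcnk3, Kcnh2 and Kcnk5 completed the 10 highest members, each with its peak in the colon at 20.2 ± 5.65, 10.7 ± 3.58 and 10.4 ± 4.25 RPKM. The neighbours in this order, Kcnh6, Kcnk3 and Kcnk16, lay within 1 SD of each other at their peaks.

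**Figure D1:**
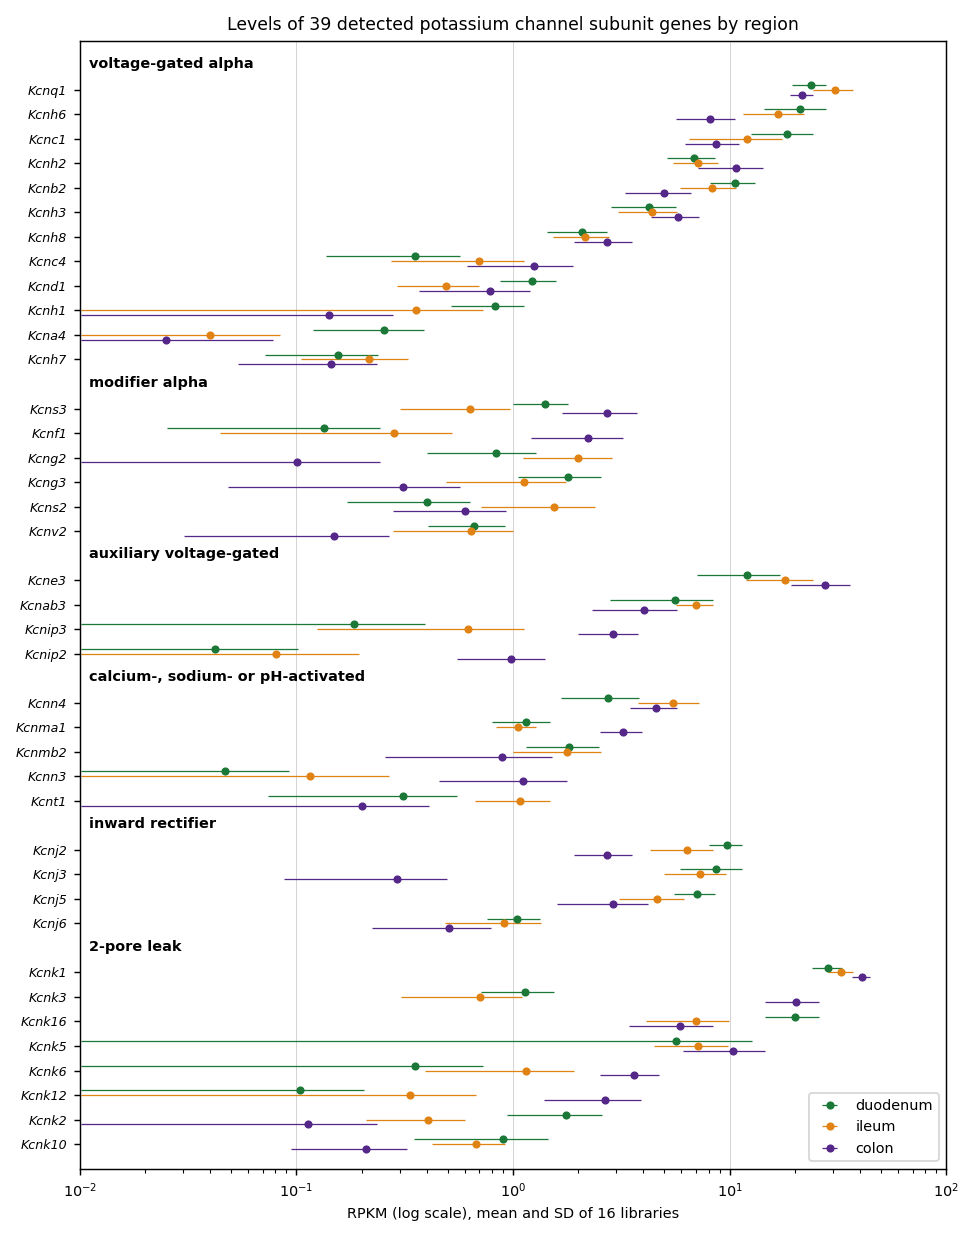
Level of 39 members that reached 1 CPM in a region, as RPKM on a log axis, with the mean (point) and SD (line) of the 16 libraries of the duodenum, ileum and colon. Members are grouped by role. Kcnk1 is the highest in all regions, Kcnk3 lies far to the right in the colon, and Kcnj3 far to the left.

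edgeR's filter on low counts left 42 members to test, and the 50 that failed it were at or below 0.962 CPM in every region. Those 50 were 15 voltage-gated alpha, 4 modifier, 8 auxiliary, 7 calcium-, sodium- or pH-activated, 10 inward rectifier and 6 2-pore genes. They included Kcnq3, a neuronal voltage-gated subunit (at most 0.599 CPM), and Kcnj8, an inward rectifier (at most 0.683 CPM). The filter keeps a gene that is high in only 1 group, so the counts of tested members that follow are descriptions.

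Many of the channel genes differed between gut regions. Averaged over the surgery groups, 24 of the 42 tested members differed between ileum and duodenum (12 higher, 12 lower in the ileum), beside 33.8% of all 15126 tested genes (17.2% higher, 16.6% lower). Between colon and duodenum 35 differed (17 higher, 18 lower in the colon) beside 55.0% of all genes (26.8% higher, 28.3% lower), and between colon and ileum 33 differed (15 higher, 18 lower) beside 49.2% (23.8% higher, 25.4% lower). The members' shares were 57.1%, 83.3% and 78.6% of those tested. These calls are from edgeR's quasi-likelihood test with Benjamini-Hochberg adjustment at 0.05, run over the 15126 genes together, as are all adjusted p given here. The median log2 fold change of the members was 0.03, -0.28 and -0.45, against 0.00, -0.01 and -0.01 over all tested genes. Every called member had the same direction in each of the 3 surgery groups between colon and either small intestinal region, and 22 of 24 did between ileum and duodenum (not Kcnc4 and Kcnk3). Of the called members, 18 of 35 moved the same way in all 15 mice with colon and duodenum libraries, 14 of 33 in all 16 mice with colon and ileum libraries, and 3 of 24 in all 15 mice with ileum and duodenum libraries. The members were called on these same libraries, so agreement of direction within them is in part set by that choice and is a description.

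With the library index as a covariate, 5, 19 and 28 members were called, of which 3, 19 and 28 were among those above. The share of all genes called with the covariate is not given here, so a loss particular to the members cannot be read from these counts. Inside a single index value that held both regions, the direction was the same for 23 of 24 members between ileum and duodenum (7 and 4 libraries, not Kcnb2), for 34 of 35 between colon and duodenum (1 and 4 libraries, not Kcnk5) and for 33 of 33 between colon and ileum in each of a pair of index values (1 and 7, and 4 and 8 libraries). In the remaining index value, with 11 colon libraries and 1 ileum library, it was the same for 29 of 33 (not Kcnd1, Kcnh1, Kcnj6 and Kcnmb2). One of the 4 duodenum libraries in these comparisons is that of mouse 27, and without it the direction was the same for 24 of 24 and 35 of 35 members (7 and 3, and 1 and 3 libraries), with log2 ratios of -0.20 for Kcnb2 and 0.25 for Kcnk5. The single colon library and the single ileum library compared within an index are both of mouse 12, whose sample codes contradict the tissue labels. These directions come from libraries on which the members were called, so agreement is in part set by that choice. For the 12 duodenum libraries with their own index, index and region cannot be told apart. With the covariate the ileum to duodenum calls shared with the list above were Kcns2, Kcns3 and Kcnt1. The other 21 of those calls were lost, among them Kcnd1, Kcne3, Kcng2, Kcnk16, Kcnn4 and Kcnq1, whose differences are given below. Of the colon to duodenum calls 16 were lost, among them Kcna4, Kcnb2, Kcnc1, Kcnc4, Kcnd1, Kcne3, Kcnh6, Kcnj5, Kcnj6, Kcnk16, Kcnk5, Kcnk6, Kcnmb2, Kcnn4 and Kcns3, and of the colon to ileum calls 5 were lost, among them Kcnc4, Kcnd1, Kcnj5 and Kcns2. Without the duodenum library of mouse 27 the counts were 27, 36 and 37. With the covariate and without that library, an alternative added after seeing the data, edgeR called 0, 14 and 28 members (12, 21 and 33 at an unadjusted p under 0.05), and the direction was the same for 23 of 24 (not Kcnk1), 35 of 35 and 33 of 33. The 3 duodenum libraries that then share an index with another region are all from S_al mice. The 14 called between colon and duodenum were Kcnf1, Kcng2, Kcng3, Kcnh1, Kcnip3, Kcnj2, Kcnj3, Kcnk10, Kcnk12, Kcnk16, Kcnk2, Kcnk3, Kcnma1 and Kcnn3.

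**Figure D2:**
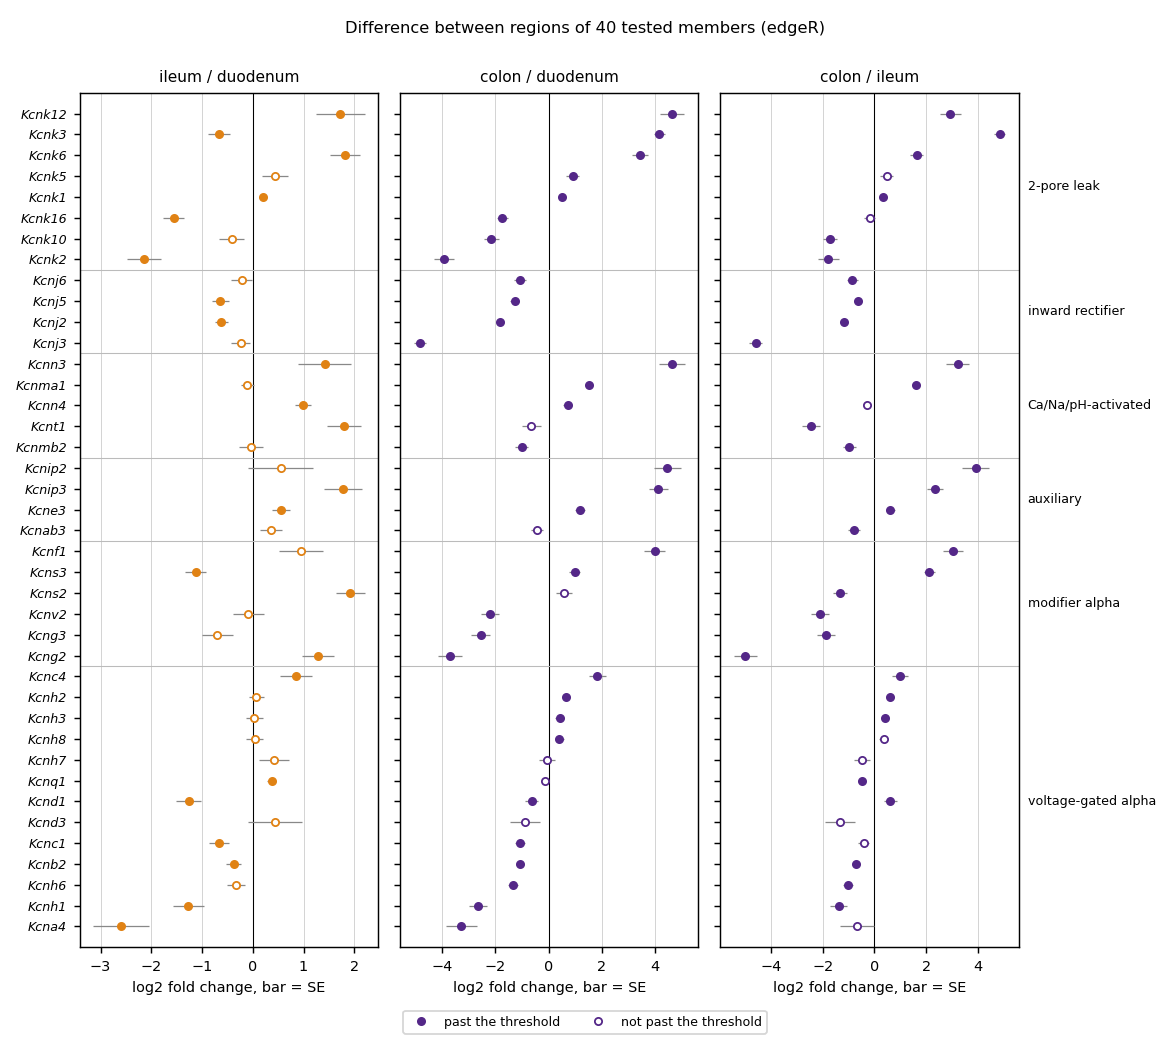
Log2 fold change (point) with its standard error (line) of 40 of the 42 tested members between each pair of regions, from edgeR, in order of role and of the colon to duodenum change. Filled points passed the threshold. The inward rectifiers all lie below 0 in both colon panels, while the 2-pore channels spread from -3.94 for Kcnk2 to 4.65 for Kcnk12 against the duodenum.

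The tested 2-pore leak channels differed between colon and duodenum in both directions. In the colon 5 of 8 tested members were higher than in the duodenum (Kcnk12, Kcnk3, Kcnk6, Kcnk5, Kcnk1), beside 26.8% of all genes. The other 3 were lower (Kcnk2, Kcnk10, Kcnk16), beside 28.3% of all genes. Kcnk5, Kcnk6 and Kcnk16 lost this call with the index covariate. With the covariate and without the mouse 27 duodenum library, Kcnk1, Kcnk5 and Kcnk6 lost it. Kcnk3, an acid-sensitive background channel at chr5:30588170-30625271 on the plus strand (GRCm38), ranged from 38.93 to 121 CPM in colon libraries (median 74.8), from 0.723 to 7.59 in duodenum (median 4.35) and from 0.748 to 6.25 in ileum (median 2.52). No colon library overlapped a small intestinal one. The log2 fold change of Kcnk3 was 4.17 (SE 0.20, edgeR adjusted p = 1.62e-22) against the duodenum and 4.84 (SE 0.214, adjusted p = 2.14e-23) against the ileum, and Kcnk3 was higher in the colon in every mouse. Kcnk12, a silent member of the halothane-inhibited group, had a lower level. It ranged from 1.75 to 10.4 CPM in the colon (median 4.99), from 0 to 2.41 in the ileum and from 0 to 0.547 in the duodenum, with a log2 fold change of 4.65 (SE 0.454) against the duodenum and 2.93 (SE 0.402) against the ileum. Kcnk6, another weakly conducting epithelial channel, rose stepwise, from a median of 1.02 CPM in duodenum to 3.80 in ileum and 14.7 in colon. The colon and duodenum values of Kcnk6 (8.33 to 25.6 and 0.101 to 6.65 CPM) did not overlap. Kcnk1 differed little in ratio but in every mouse between colon and duodenum, with log2 fold changes of 0.52 (SE 0.0682) against the duodenum and 0.32 (SE 0.0682) against the ileum.

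Kcnk5, an alkaline-activated channel of epithelia, was higher in colon than in duodenum by 0.90 on the log2 scale (SE 0.257, edgeR adjusted p = 0.00274). Its duodenal value in mouse 27 was 107 CPM, while the other 15 duodenum libraries lay between 6.02 and 17.8 CPM. Without that library the log2 fold change was 1.35, Kcnk5 was also called between ileum and duodenum (0.87) and between colon and ileum (0.49), and with the index covariate its colon to duodenum difference was -0.48 (adjusted p = 0.493). The mouse 27 library is one of the 4 duodenum libraries that share an index with another region, and with the covariate but without it the difference was 0.76 (adjusted p = 0.340). Among the duodenum libraries, Kcnk5 and Kcnk6 were highest in this one, which had the most enterocyte marker RNA. The part of enterocyte RNA in their region differences was not tested. In the colon, where the mean of both was highest, the enterocyte markers were at 448 CPM and the colonocyte markers at 1279.

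The duodenal 2-pore channels were Kcnk16, Kcnk2 and Kcnk10. Kcnk16 ranged from 11.7 to 67.5 CPM in the duodenum (median 50.6), against 6.48 to 31.6 in the ileum and 1.92 to 24.7 in the colon. It was lower than in the duodenum by 1.56 on the log2 scale in the ileum (log2 fold change -1.56, SE 0.208) and by a like amount in the colon (-1.74, SE 0.209), while ileum and colon did not differ past the threshold (-0.18, SE 0.211). Kcnk2, a mechano- and lipid-gated channel, fell along the gut, from a median of 8.74 CPM in duodenum to 2.04 in ileum and 0.444 in colon (log2 fold change -3.94, SE 0.388, colon against duodenum). Kcnk10, its close relative, was lower in the colon only (-2.15, SE 0.268, against the duodenum, and -0.42, SE 0.245, between ileum and duodenum, not past the threshold). Exons of Kcnk1, Kcnk2 and Kcnk3 overlap a gene on the other strand by 179, 604 and 229 bases, so their counts carry that uncertainty.

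All 4 tested inward rectifiers of the set, which leaves out a Kcnj gene, were lower in colon than in duodenum and than in the ileum. Over all tested genes, 28.3% and 25.4% were lower. The largest difference of the 4 was in Kcnj3, which encodes the G protein-gated subunit shared by most channels that inhibitory receptors open, at chr2:55435970-55598145 on the plus strand. Kcnj3 ranged from 14.0 to 70.7 CPM in the duodenum (median 44.9), from 17.1 to 63.6 in the ileum (median 38.2) and from 0 to 3.55 in the colon (median 1.25). No colon library reached the lowest small intestinal one. Its log2 fold change was -4.84 (SE 0.239, edgeR adjusted p = 5.96e-22) against the duodenum and -4.60 (SE 0.239, adjusted p = 7.35e-21) against the ileum, in 15 of 15 and 16 of 16 mice. Its partners Kcnj5 and Kcnj6 were lower in the colon by smaller ratios. Kcnj5 had a median of 35.1 CPM in duodenum, 19.4 in ileum and 10.9 in colon (-1.27, SE 0.166, colon against duodenum). Kcnj6 had medians of 7.47, 6.00 and 3.18 CPM (-1.07, SE 0.215). Kcnj2, the classical strong inward rectifier, fell from 54.0 CPM (median, range 26.6 to 64.5) in duodenum to 30.7 in ileum and 13.4 in the colon (range 7.71 to 23.0), with -1.81 (SE 0.129) between colon and duodenum. Exons of Kcnj3 overlap those of Gm26794 on the other strand over 1621 bases, and those of Kcnj6 overlap Gm41505 over 380 bases.

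**Figure D3:**
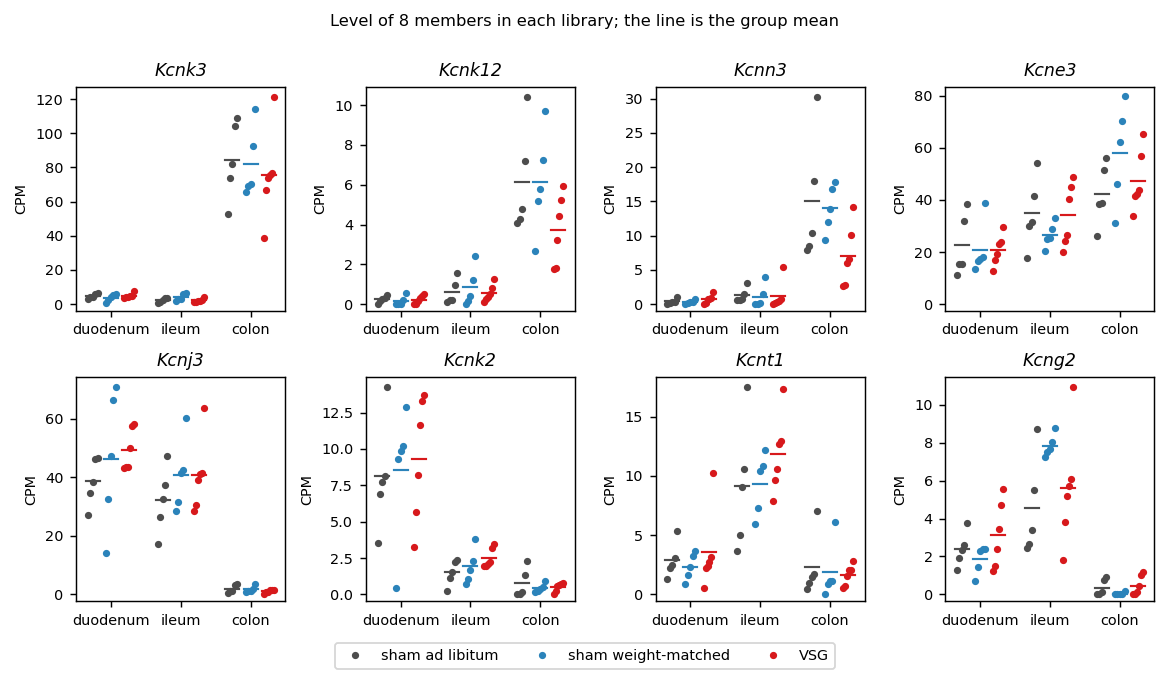
CPM of 8 members in each of the 48 libraries, by region, coloured by surgery group (S_al, S_wm, VSG) and a line at each group mean. Kcnk3, Kcnk12, Kcnn3 and Kcne3 are highest in the colon, Kcnj3 and Kcnk2 are lowest there, and Kcnt1 and Kcng2 peak in the ileum. Within a region the 3 surgery groups overlap.

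The voltage-gated alpha subunits leaned towards the duodenum. Of 15 tested, 7 were lower and 4 higher in colon than in duodenum, beside 28.3% and 26.8% of all genes. The most abundant of the lower ones were Kcnb2, Kcnc1 and Kcnh6. Kcnc1 ranged from 29.1 to 247 CPM in the duodenum (median 186), from 49.0 to 240 in the ileum (median 113) and from 46.5 to 120 in the colon (median 83.6), and was lower in colon than in duodenum by 1.08 (log2 fold change -1.08, SE 0.199). Its lowest duodenal value came from mouse 27, and the other 15 lay at 128 CPM or more. Kcnb2 and Kcnh6 had log2 fold changes of -1.09 (SE 0.148) and -1.35 (SE 0.184) for the same comparison, and Kcnh6 was lower in the colon in all 15 mice. Among the scarcer members, Kcna4, an inactivating A-type channel, was near 1 CPM only in the duodenum (median 1.12, against 0.117 in ileum and 0 in colon), with log2 fold changes from the duodenum of -2.60 (SE 0.545) for ileum and -3.29 (SE 0.582) for colon. Kcnh1, of the ether-a-go-go group, had medians of 5.74, 1.92 and 0.631 CPM and was called in all 3 comparisons. Kcnd1, an A-type channel, had its low point in the ileum, with a median of 2.59 CPM between 6.61 in the duodenum and 3.81 in the colon, and was lower in the ileum than in the duodenum (-1.26, SE 0.245).

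The 4 that were higher in colon than in duodenum were Kcnh2, Kcnh3, Kcnh8 and Kcnc4. All 4 had their lowest duodenal value in the mouse 27 library, and Kcnh8 was not called without it. With the index covariate and without that library none of the 4 was called. Kcnh2, the ERG-type channel of the heart, had medians of 33.3, 34.6 and 50.5 CPM in duodenum, ileum and colon, and was higher in the colon by 0.66 (SE 0.143) against the duodenum and 0.59 (SE 0.144) against the ileum. Kcnq1 had its highest level in the ileum, with medians of 102, 115 and 87.8 CPM. It was higher in the ileum than in the duodenum (0.37, SE 0.0863) and lower in colon than in ileum (-0.49, SE 0.0866), while colon and duodenum differed by -0.12 (SE 0.0864), not past the threshold. The ileum to duodenum call of Kcnq1 was lost with the index covariate. Kcnq1 shares 121 exonic bases with Kcnq1ot1 on the other strand.

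The modifier subunits, which lend their properties to Kcnb channels, differed in the region of their highest level. Kcns2 was highest in the ileum, with a median of 8.22 CPM against 2.12 in the duodenum and 2.98 in the colon, and was higher in the ileum than in the duodenum in all 15 mice (log2 fold change 1.92, SE 0.283). Kcng2 was also highest in the ileum, at 1.83 to 10.9 CPM (median 5.91), against 0.701 to 5.55 in the duodenum and 0 to 1.202 in the colon. Its ileum and colon values did not overlap, and its log2 fold change between them was -5.00 (SE 0.438), the largest decrease of the 42 tested members in that comparison. Kcnf1 was colonic, at 4.03 to 19.2 CPM against 0 to 3.97 in the ileum and 0 to 1.64 in the duodenum, with log2 fold changes of 3.05 (SE 0.380) and 4.0 (SE 0.397). Kcns3 was highest in the colon and lowest in the ileum, with medians of 8.503 and 1.82 CPM and 4.22 in the duodenum between them. Kcns3 was higher in colon than in ileum in 16 of 16 mice (2.12, SE 0.216), and the 2 regions' libraries did not overlap. Kcng3 and Kcnv2 were lower in the colon than in both small intestinal regions, by -2.56 (SE 0.345) and -2.19 (SE 0.339) against the duodenum. Exons of Kcng2 overlap D330025C20Rik on the other strand over 272 bases.

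Among the auxiliary subunits, Kcne3, Kcnip3 and Kcnip2 were higher in the colon than in both other regions. Kcne3 ranged from 26.1 to 80.0 CPM in the colon (median 45.1), from 17.7 to 54.4 in the ileum (median 29.4) and from 11.3 to 38.88 in the duodenum (median 17.8), so that the regions overlapped. Its log2 fold change was 1.18 (SE 0.175) between colon and duodenum and 0.56 (SE 0.175) between ileum and duodenum. The calcium-binding Kcnip proteins attach to Kcnd channels. Kcnip3 was at 6.14 to 17.4 CPM in the colon (median 10.2) against 0 to 2.47 in the duodenum (median 0.427), a log2 fold change of 4.12 (SE 0.360), with the ileum between them (median 1.67 CPM). Kcnip2 was at 1.34 to 6.31 CPM in the colon and at a median of 0.0586 in the duodenum and 0.149 in the ileum (4.46, SE 0.513, colon against duodenum). Of the tested Kcnd genes, Kcnd1 had its highest level in the duodenum, and Kcnd3 was called in no region comparison. Kcnab3 was the only tested member of its family and was lower in colon than in ileum (-0.80, SE 0.225). Its exons overlap Kcnab3os on the other strand over 147 bases.

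The calcium-, sodium- or pH-activated group had colonic and ileal members. Kcnn3, a small-conductance calcium-activated channel at chr3:89520164-89675132 on the plus strand, ranged from 2.61 to 30.2 CPM in the colon (median 10.2), from 0 to 5.44 in the ileum (median 0.602) and from 0 to 1.82 in the duodenum (median 0.368). Kcnn3 was higher in the colon by 4.64 (SE 0.485) against the duodenum and 3.22 (SE 0.441) against the ileum, in every mouse. The ileum to duodenum difference of Kcnn3 (1.42, SE 0.523, edgeR adjusted p = 0.0319) held its direction in 9 of 15 mice only and was not called with the mouse as a fixed replicate block (1.30) or without mouse 19, 22, 27, 31 or 32. Kcnma1, the large-conductance channel opened by voltage and calcium, was higher in the colon without overlap, at 36.9 to 80.0 CPM against 10.8 to 25.2 in the ileum and 10.5 to 31.6 in the duodenum (1.51, SE 0.125, against the duodenum). Its beta subunit gene Kcnmb2 went the other way (-1.01, SE 0.251), from a median of 5.97 CPM in the duodenum to 2.48 in the colon. Kcnn4, the intermediate-conductance channel, was higher in ileum and colon than in the duodenum (0.99, SE 0.163, and 0.72, SE 0.163). Kcnt1, a sodium-activated channel, peaked in the ileum at 3.67 to 17.5 CPM (median 10.5), against medians of 2.43 in the duodenum and 1.31 in the colon. It was higher in the ileum in all 15 mice against the duodenum (1.79, SE 0.334) and in all 16 against the colon (-2.45, SE 0.355, colon against ileum).

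Summed over all 92 members, the level was alike in the 3 regions, at 212 ± 23.7 RPKM in duodenum, 204 ± 22.7 in ileum and 215 ± 14.5 in colon (mean ± SD, n = 16 each). The make-up by role is given as a description, without a test. The 2-pore channels held 28.01 ± 4.76% of the summed RPKM in duodenum, 24.9 ± 3.38% in ileum and 39.2 ± 1.65% in the colon, and the auxiliary subunits 8.76 ± 3.18%, 12.9 ± 3.11% and 16.9 ± 3.72%. The inward rectifiers held 12.6 ± 2.05%, 10.1 ± 2.24% and 3.17 ± 0.702%, and the voltage-gated alpha subunits 45.1 ± 6.61%, 44.0 ± 4.36% and 32.9 ± 3.66%. The colon's range of summed inward rectifier RPKM (4.23 to 10.5) lay below the whole duodenal range (10.8 to 34.2), and its 2-pore range (72.3 to 93.3) lay above the duodenal (50.5 to 70.4) and ileal (41.6 to 67.7) ranges. The lowest duodenal inward rectifier sum, 10.8 RPKM, lay close to the colon's highest.

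**Figure D4:**
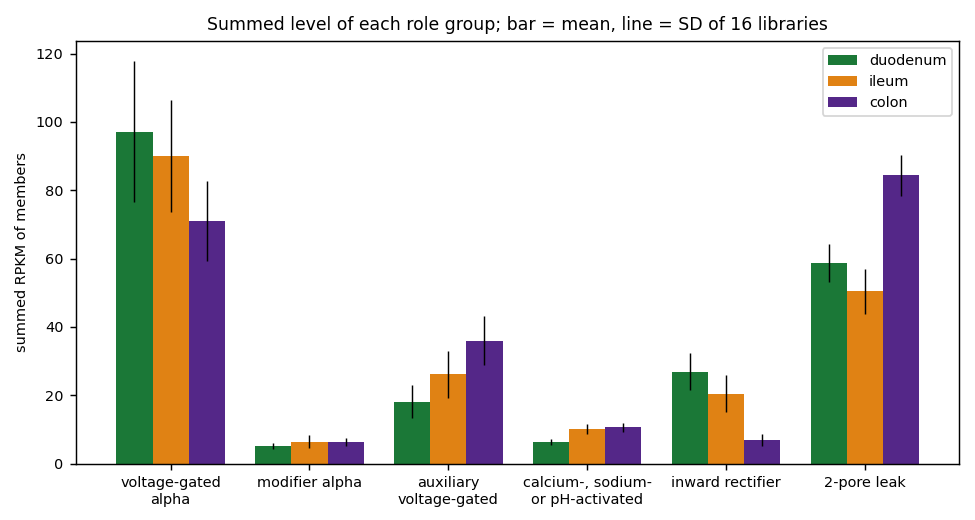
Summed RPKM of the members of each role group in the duodenum, ileum and colon; bars are means and lines the SD of 16 libraries. The colon has more 2-pore and auxiliary and less inward rectifier and voltage-gated alpha RNA, while modifier subunits sum to between 5.29 and 6.40 RPKM everywhere.

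The 250 bases before the RefSeq start of 4 members are shown because their colon and duodenum libraries did not overlap and they moved in opposite directions, and they were chosen after their values and motif matches were known (GRCm38.p6, read 5′ to 3′ on the gene's strand). Kcnk12 (chr17:87797995-87798244, minus strand) and Kcnn3 (chr3:89519914-89520163, plus strand) were higher in the colon, and Kcnj3 (chr2:55435720-55435969, plus strand) and Kcnj2 (chr11:111065914-111066163, plus strand) were lower. Capitals mark CAGCTG, a form of the E-box that basic helix-loop-helix factors bind.
Kcnk12: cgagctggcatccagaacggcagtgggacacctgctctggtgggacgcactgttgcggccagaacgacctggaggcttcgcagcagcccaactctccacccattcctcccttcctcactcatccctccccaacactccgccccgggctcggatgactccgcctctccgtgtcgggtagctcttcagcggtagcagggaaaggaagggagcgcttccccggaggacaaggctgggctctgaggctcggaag
Kcnn3: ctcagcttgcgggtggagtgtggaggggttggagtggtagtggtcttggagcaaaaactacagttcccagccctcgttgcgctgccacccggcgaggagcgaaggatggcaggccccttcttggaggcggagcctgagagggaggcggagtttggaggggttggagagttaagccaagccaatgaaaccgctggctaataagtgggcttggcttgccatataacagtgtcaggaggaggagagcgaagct
Kcnj3: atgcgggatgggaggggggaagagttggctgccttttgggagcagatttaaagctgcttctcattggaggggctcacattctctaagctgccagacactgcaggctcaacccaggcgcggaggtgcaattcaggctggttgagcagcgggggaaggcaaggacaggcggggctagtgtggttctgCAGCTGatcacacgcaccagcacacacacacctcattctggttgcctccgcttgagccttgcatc
Kcnj2: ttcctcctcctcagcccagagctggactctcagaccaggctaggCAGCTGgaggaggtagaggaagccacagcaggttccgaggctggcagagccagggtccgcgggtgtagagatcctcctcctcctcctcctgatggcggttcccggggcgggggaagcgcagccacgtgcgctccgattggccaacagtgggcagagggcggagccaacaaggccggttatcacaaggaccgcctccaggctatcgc
All 4 windows are rich in G and C (64.8%, 58.8%, 58.4% and 65.6%), against a median of 52.4% over the 32851 RefSeq windows. CAGCTG, which reads the same on both strands, lies 65 bases before the start in Kcnj3 and 206 bases before it in Kcnj2, and 4271 of all windows hold it. A promoter entry was matched for 68 members by symbol, with 93 windows. CAGCTG was in 1 of 18 windows of the members higher in colon than in duodenum (Kcnip3) and in 4 of 18 windows of those lower (Kcnj2, Kcnj3, Kcnk2), against 22 of 93 windows (23.7%) over all matched members. Kcnip3, whose colon and duodenum values also did not overlap (6.14 to 17.4 and 0 to 2.47 CPM), is not among the windows shown. The related E-box CAGATG, searched on both strands, was in 1 of 18 (Kcnip3) and 3 of 18 (Kcna4, Kcnk16, Kcnk2), against 14.4% of all windows, and TATAAA was in none of the 36, against 12.4% of all. A match is a description of letters in a window, not of binding.

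The surgery comparison asks whether channel transcripts of EECs differ after VSG, with the weight-matched sham mice as the control for body weight. With edgeR, no member differed past the threshold in any surgery comparison. Averaged over regions, 0 of 42 tested members differed between VSG and S_al (0 at an unadjusted p under 0.05), 0 between VSG and S_wm (3 at an unadjusted p under 0.05) and 0 between S_wm and S_al (3 unadjusted), beside 0.0%, 0.245% and 0.0529% of all tested genes by adjusted p and 5.53%, 9.92% and 6.39% by unadjusted p. DESeq2, and limma voom with a random replicate block, likewise called 0 in each. Within regions the background was 0.0%, 0.225% and 0.0% in the duodenum for VSG against S_al, VSG against S_wm and S_wm against S_al, 0.0%, 0.0463% and 0.0% in the ileum, and 0.0%, 0.0595% and 0.0132% in the colon. Across these 9 comparisons edgeR called no member, with between 0 and 6 at an unadjusted p under 0.05 (6 for S_wm against S_al in the ileum, where 7.85% of all genes passed, and 2.45% to 8.71% over the 9), and DESeq2 called 1, Kcnk6 in the duodenum. The joint test of surgery by region called 0 members (2 unadjusted, Kcnip3 and Kcng2) beside 0.0% of all genes (4.90% unadjusted). The median standard error of the members' log2 fold change was 0.230, 0.232 and 0.239 in the 3 averaged comparisons. The log2 fold changes ran from -0.58 to 0.37 for VSG against S_al, from -0.98 to 1.14 for VSG against S_wm and from -0.77 to 0.67 for S_wm against S_al, and 41, 38 and 39 of the 42 were within 0.5 of 0.

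The members of lowest p give the size of what was seen. Between VSG and S_al these were Kcnh1 (log2 fold change -0.58, SE 0.331, edgeR adjusted p = 0.957), Kcns3 (-0.36, SE 0.206, adjusted p = 0.960) and Kcnj6 (0.35, SE 0.210, adjusted p = 0.967). Between VSG and S_wm they were Kcnk1 (0.23, SE 0.0674, adjusted p = 0.155), Kcnh1 (-0.98, SE 0.322, adjusted p = 0.230) and Kcng2 (1.14, SE 0.452, adjusted p = 0.354). Kcnk1 in the ileum was at 53.1, 63.9, 67.7, 68.4 and 69.5 CPM in the S_wm libraries and from 68.6 to 95.3 (median 77.1) in the VSG libraries, while the S_al libraries lay at 66.5, 71.0, 75.3, 80.7 and 82.1. There the VSG and S_wm values overlapped by a narrow margin. In the duodenum they also overlapped, at 56.7 to 78.7 CPM in VSG and 36.9 to 71.7 in S_wm libraries, the lowest being that of mouse 27, and so they did in the colon, at 86.1 to 109 and 76.4 to 88.4 CPM. Kcnh1 in the ileum was at 12.2 CPM in S_wm mouse 27 and at 1.08 to 3.40 in the other 4 S_wm mice, against 0.248 to 2.53 in the VSG mice. The Kcng2 ratio includes the colon, where the 5 S_wm libraries held 1 count of this gene in all.

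Between S_wm and S_al the members of lowest p were Kcnk5 (0.67, SE 0.264, adjusted p = 0.693), Kcnk1 (-0.17, SE 0.0702, adjusted p = 0.726) and Kcnq1 (-0.19, SE 0.0889, adjusted p = 0.774), by edgeR. In the duodenum Kcnk5 was at 6.02, 13.4, 14.99, 16.97 and 107 CPM in the S_wm libraries, with the highest from mouse 27, and at 8.78 to 16.4 in the S_al libraries and 9.97 to 17.8 in the VSG libraries. Without the mouse 27 duodenum library the averaged log2 fold change of Kcnk5 was 0.24. The duodenal S_wm libraries held Kcnk6 at 0.547, 1.18, 2.22, 2.40 and 6.65 CPM, the highest again from mouse 27, against 0.101 to 1.25 in VSG libraries. The duodenal difference of Kcnk6 between VSG and S_wm was -1.77 (SE 0.545, edgeR adjusted p = 0.139), and -1.12 without that library.

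**Figure D5:**
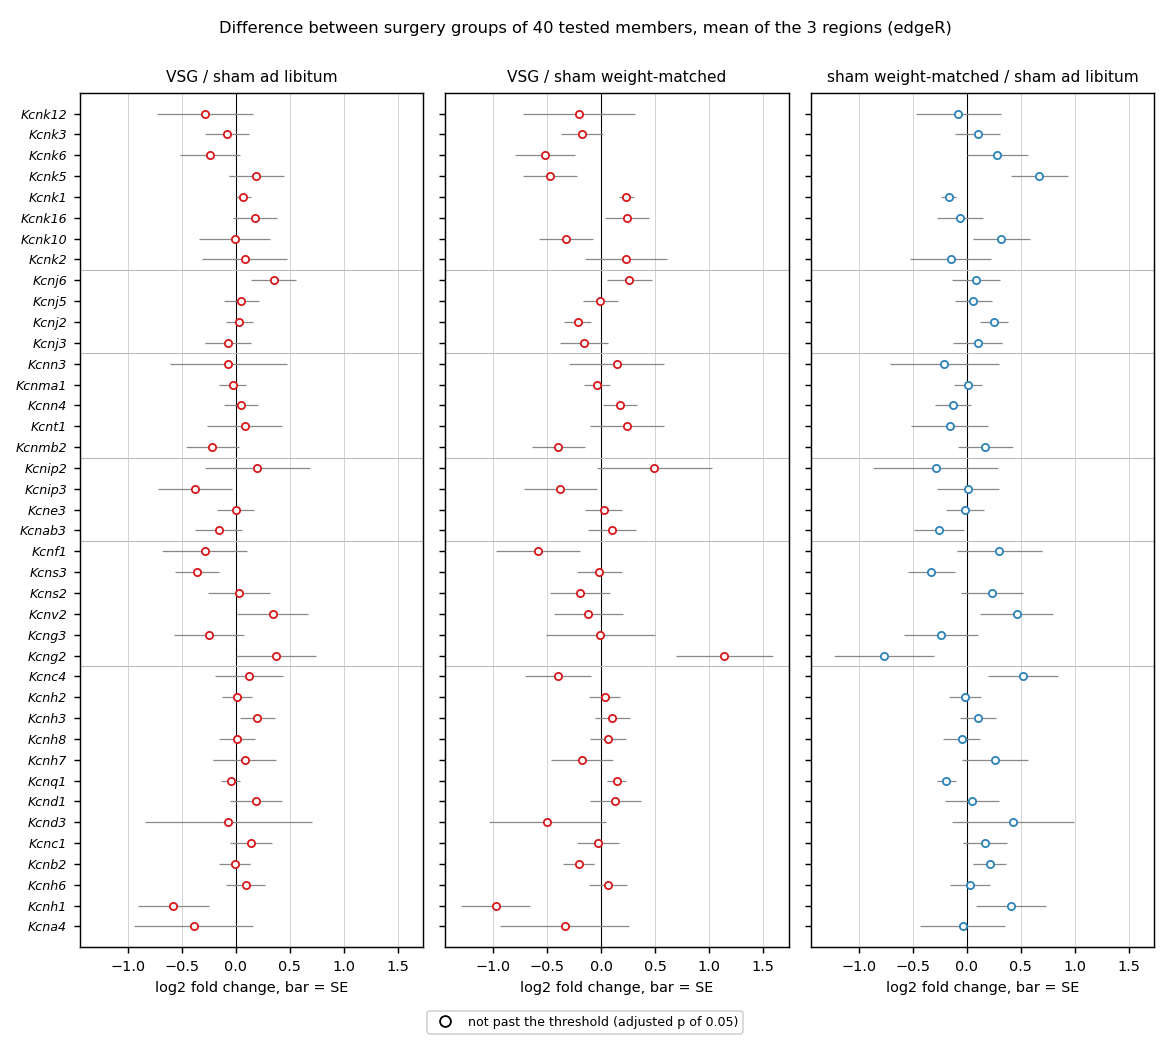
Log2 fold change (point) with its standard error (line) of 40 of the 42 tested members for the 3 surgery comparisons, averaged over the regions, from edgeR, in the order of the region plot. All points are open because none passed the threshold, and they lie between -0.98 and 1.14.

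Lists of genes that work with these channels were read against the same share of 55.0% of all genes called between colon and duodenum. Of 10 listed channel partners 4 were tested. Lrrc26, the gamma subunit that lets Kcnma1 channels open at rest, was higher in colon than in duodenum by 3.68 (SE 0.315), at 21.4 ± 9.08 against 1.69 ± 2.41 CPM (SD, n = 16). Abcc8, the sulfonylurea receptor, was lower (-2.09, SE 0.179), at 27.4 ± 12.3 CPM against 118 ± 35.8, and so was Dpp6, a partner of Kcnd channels (-3.60, SE 0.369). Of 10 tested pumps and cotransporters 4 were higher (Atp12a, Atp1b2 and Slc12a2 among them) and 1 lower (Atp1b3) in colon than in duodenum, a share near that of all genes. Atp12a, the non-gastric proton-potassium pump, was at 34.1 ± 22.1 CPM in the colon and 0.0690 ± 0.114 in the duodenum. The colonocyte markers summed to 1279 CPM in the colon and 123 in the duodenum. The part of other cells' RNA in the differences of these lists was not tested. Among the hyperpolarization-activated channels, Hcn4 was lower in the colon (-1.0, SE 0.147) and Hcn2 higher (0.93, SE 0.107). Of the 18 tested genes of these lists, none was called in an averaged surgery comparison by edgeR.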

How the data were processed

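The authors sorted NeuroD1-positive cells of 17 mice by flow cytometry and sequenced 48 libraries made with a stranded total RNA kit. They aligned reads with STAR 2.5.1 (named with CASAVA in the submitters' processing notes) to GRCm38, and deposited 1 table of whole-number counts per Ensembl gene without normalization. The strand setting of the counting is not given in the sources used here. Symbols, roles, coordinates and exon lengths came from GENCODE M21 (53360 of 53465 identifiers matched). Some genes of the symbol pattern and of the lists are not reported here by name, and 5 symbols of the pattern that are not protein-coding were left out.

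Counts were tested with edgeR 4.0.16 (R 4.3.3): filterByExpr, TMM, 1 mean per group of region and surgery, robust quasi-likelihood fit, Benjamini-Hochberg adjustment at 0.05 over 15126 genes. Standard errors are the absolute log2 fold change over the square root of F. Region contrasts average the surgery groups and surgery contrasts the regions. The main fit has no term for the mouse, so libraries of 1 animal count as independent in its standard errors and p. The common biological coefficient of variation was 0.302. CPM are TMM-scaled, and RPKM are CPM per kb of exon. The test was tried on simulated data. Precision is limited by totals of 4648651 to 17182463 counts. Libraries of a group all differed beyond counting noise (in 105 pairs, chi-square per gene was at least 8.77). Protein sequences were not used here.

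The members, role groups and lists were chosen with earlier results of these data known. Named genes are the 10 of highest RPKM, up to 6 per region comparison and direction with the largest change, and the 3 of lowest p in each averaged surgery comparison. Other members are named to complete a role group, and Kcnk6 in the duodenal surgery comparison and the promoters shown were chosen after their values were seen. Alternatives were DESeq2 1.42.0, its size factors, no filter, a stricter filter, the library index as covariate, omission of libraries of mouse 12 and 27 and of each mouse, the index together with omission of the mouse 27 duodenum library (added after seeing the data), counts summed per mouse, and a replicate block of the mouse, fixed or random (limma 3.58.1 voom, correlation within a mouse 0.128). The pairing comes from the mouse number in the labels: libraries of 1 number are 1 animal. Surgery groups hold different mice.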

Additional observations from a re-analysis of the deposited data

Results flagged for a closer look

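In 81 groups of 5 or 6 libraries (9 members whose group values were compared between surgeries), 6 had a library far from the others by Dixon's ratio. For normally distributed values, which these CPM need not be, chance gives such a library in about 1 group of 20. The members were chosen by low p in a surgery comparison or after their values were seen, so the count is a description. Kcnk5 was at 107.4 CPM in the duodenum of S_wm mouse 27, the library with little EEC and much enterocyte marker RNA, against 6.02 to 16.97 in the other S_wm libraries. Kcnh1 was at 12.21 CPM in the ileum of the same mouse, against 1.08 to 3.40. Kcnk6 was at 12.84 CPM in the ileum of S_al mouse 12, whose ileum and colon codes are crossed in the labels, against 2.21 to 4.60. In S_al mouse 32, Kcnj6 was at 10.83 CPM in the ileum (others 3.25 to 4.67) and Kcnip3 at 2.469 CPM in the duodenum (others 0 to 0.659). Kcng2 was at 0.1861 CPM in the colon of S_wm mouse 29, which is 1 count, and at 0 in the other S_wm colon libraries.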

How the results depend on the processing

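Counts of called members between ileum and duodenum, colon and duodenum, and colon and ileum (24, 35 and 33) stayed within 1.5 times under DESeq2 (26, 35, 34), its size factors (24, 35, 33), no filter (24, 49, 37), a stricter filter (23, 33, 32), the fixed replicate block of the mouse (22, 36, 34), the random replicate block (25, 37, 34) and omission of the mouse 12 (24, 35, 33) or mouse 27 (27, 36, 37) libraries. With each mouse left out in turn they ranged from 22 to 26, from 34 to 38 and from 31 to 36. The library index as a covariate gave 5 and 19 for the first and second comparison, and 28 for colon against ileum; it is unevenly spread over the regions, and the cause was not tested. Without the mouse 27 duodenum library as well (added after seeing the data), edgeR called 0 and 14 for the first and second comparison (12 and 21 at an unadjusted p under 0.05) and 28 for the third. The shares of all genes called in these covariate fits are not given here. The surgery counts of 0, averaged or in interaction, stayed at 0 in every alternative run. Within regions, summed over 9 comparisons, the count of 0 became 1 with DESeq2 (Kcnk6, duodenum, VSG against S_wm), 1 with the index covariate (Kcnk6, duodenum, S_wm against S_al), and 0 to 1 with each mouse left out (Kcnk5, duodenum, VSG against S_wm, -1.49 without S_wm mouse 31). For 45 pairs of a named member and a comparison, 1177 of 1209 alternative values kept direction and side of the threshold, and 32 kept the direction but lost the call, 10 of them with the index covariate, 14 with it and without the mouse 27 duodenum library, and 8 for Kcnn3 between ileum and duodenum. The fixed replicate block lost the ileum to duodenum calls of Kcnb2 and Kcnn3 and gained Kcns2 between colon and duodenum and Kcnh8 between colon and ileum. The random block shared 22 of the 24 ileum to duodenum calls and also lost Kcnn3. Among called members, the index covariate reversed Kcnb2 and Kcnc1 between ileum and duodenum and Kcnk5 between colon and duodenum (-0.48), none past the threshold. With the covariate and without the mouse 27 duodenum library these 3 kept their direction, and Kcnk1 reversed between ileum and duodenum (-0.01), not past the threshold. Members near or below 1 CPM rest on few counts, so that differences among them were not detectable at this depth unless large.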
